A study of Mus musculus with 4 samples.

Results

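Mouse genes named Zfp followed by a number encode zinc-finger proteins. The genes described here are those whose symbol is Zfp with a number and at most 1 further letter and whose mean level over the 4 libraries was at least 20 CPM (the read count relative to the library total), with Zfp42 and Zfp281 left out. Of the 45706 genes in the table, 399 had such a symbol, 397 remained after the exclusion, and 138 reached the level. All 138 were tested, among 18005 genes that passed a filter on low counts. Just inside the level stood Zfp354c (20.36 CPM), Zfp105 (20.45) and Zfp408 (20.47), and just outside it Zfp992 (19.97), Zfp422 (19.88) and Zfp446 (19.55).

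The libraries came from mouse embryonic stem cells of the line V6.5, grown on irradiated feeder cells in 15% serum with 1000 U/ml LIF and in 2i, which blocks MEK (inhibitor at 1 µM) and GSK3 (inhibitor at 3 µM). The labels describe cells infected with a lentivirus that carries Cas9 under a doxycycline-inducible promoter (TRE3G), GFP, the puromycin resistance gene, rtta and guide RNAs, from which clonal populations were picked. The 2 libraries at 0 h (genotype label KLF WT) and the 2 at 24 h after doxycycline (genotype label KLF KO) are called A and B, and the series text calls them biological replicates. The labels name guides against KLF4 only or against KLF2, KLF4 and KLF5 together. They do not make clear which of these were in a given library, or whether any were in the 0 h cells. Every library title begins with TKO, while the titles at 0 h say WT ESCs and those at 24 h say KLF4 KO. Doxycycline, Cas9 cutting, the loss of KLF proteins and time share this one contrast and cannot be told apart.

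Library totals ran from 46031578 to 52412844 counts. CPM below are scaled by TMM, a factor per library that aligns the bulk of the genes, unless the library total is named. The transcripts of the targeted genes were not past edgeR's test: Klf4 stood at 331.2 and 256.9 CPM at 0 h (A, then B) and 244.3 and 235.6 at 24 h, Klf2 at 231.8 and 123.4 and then 147.2 and 152.4, and Klf5 at 430.7 and 294.2 and then 225.8 and 215.6. Small insertions and deletions need not lower a transcript, so these levels check no label. The 7 stem cell markers checked summed to 4517 and 4420 CPM at 0 h and to 4069 and 4114 at 24 h, so that both 24 h libraries were below both 0 h libraries. Of these 7, 4 had a positive log2 fold change and 3 a negative one, with a median of 0.014. The most negative were Pou5f1 at -0.54 (adjusted p = 0.044, edgeR) and Nanog at -0.29, and only Pou5f1 was past the test. With a trend on GC content and length removed, as described below, edgeR called 3 of the 7 lower and 0 higher. Of the genes of at least 20 CPM 20.9% were then called lower. The 8 of 10 feeder fibroblast markers that were tested summed to 2769 and 2149 CPM at 0 h and 2179 and 2113 at 24 h, mostly Fn1. Among the 8, 2 had a positive log2 fold change and 6 a negative one, with a median of -0.101. Pdgfrb fell by 1.02 on the log2 scale and alone was past the test (adjusted p = 0.0217, edgeR). The most positive was Acta2 at 0.38. Col1a1 stood at 90.04 and 59.6 CPM at 0 h and at 69.06 and 67.37 at 24 h. Lum and Dcn, also on this list, did not pass the filter on low counts. The part of either marker list in the results below was not tested. Fewer cells of a type and less RNA per cell cannot be told apart in such bulk libraries.

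A C2H2 zinc finger is a short loop of protein held around a zinc ion by a pair of cysteines and a pair of histidines, and fingers in tandem read DNA sequence, or in some proteins RNA. Many of these genes carry a KRAB box before the fingers. The KRAB box recruits KAP1 (Trim28), which brings SETDB1, HP1 proteins and histone deacetylases, and in embryonic stem cells this complex silences endogenous retroviruses and protects the marks of imprinted genes. Other members carry fingers but no KRAB box and act as transcription factors, as partners of chromatin enzymes or in RNA and ribosome biology.

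Patterns of both elements were searched in the coding sequences of GENCODE M21 after translation. At least 1 C2H2 pattern was found in 134 of the 138 members, with a median of 9 and a maximum of 36 in Zfp142. The predicted proteins ran from 76 residues in Zfp706 to 2698 in Zfp292. The search found no such pattern in Zfp185, Zfp330, Zfp365 and Zfp839. A KRAB pattern was found in 53 members (38.4%), against 176 of 251 Zfp-named genes under the level (70.1%). The coding sequence of the KRAB box is shown for 4 members to let the reader see what the silencing group shares. It is read 5′ to 3′ from GENCODE M21 transcripts on GRCm38, and capitals mark the codons of the fixed residues of the pattern that were present. Zfp57 lies at chr17:37006113-37006163 (plus strand), Zfp568 at chr7:29997795-29997845 (plus), Zfp445 at chr9:122856730-122856780 (minus) and Zfp990 at chr4:145534861-145534911 (plus).
Zfp57 KRAB box: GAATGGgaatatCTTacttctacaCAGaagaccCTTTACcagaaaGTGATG
Zfp568 KRAB box: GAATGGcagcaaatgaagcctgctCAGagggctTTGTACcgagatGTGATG
Zfp445 KRAB box: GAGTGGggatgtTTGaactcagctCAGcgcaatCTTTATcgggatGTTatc
Zfp990 KRAB box: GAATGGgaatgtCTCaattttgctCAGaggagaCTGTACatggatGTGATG

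A finger is shown for 3 members of different kinds, the earliest match of the C2H2 pattern that lies whole within an exon. It need not be the first finger of the protein, and the counts here are of pattern matches. They are a KRAB protein with 3 matches (Zfp57, chr17:37009679-37009741, plus strand) and a chromatin partner with 33 (Zfp462, chr4:55007578-55007643, plus). The last is a short protein of 189 residues with 1 (Zfp428, chr7:24515450-24515512, plus). Capitals mark the codons of the cysteines and histidines that hold the zinc. The bases between them, which include those for the residues that touch DNA or RNA, differ from member to member.
Zfp57 finger: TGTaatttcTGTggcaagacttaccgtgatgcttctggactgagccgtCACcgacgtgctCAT
Zfp462 finger: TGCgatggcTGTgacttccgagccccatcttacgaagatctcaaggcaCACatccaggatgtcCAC
Zfp428 finger: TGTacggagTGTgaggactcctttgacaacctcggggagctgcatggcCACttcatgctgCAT

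Few members changed past the test at 24 h. By the quasi-likelihood test of edgeR, with p-values adjusted by Benjamini-Hochberg over all genes, 3 of 138 members passed a threshold of 0.05 (2.17%), against 1225 of all 18005 genes (6.8%) and 463 of the 7970 genes with a mean of at least 20 CPM (5.81%). Higher at 24 h was 1 member, against 4.15% of all genes, and 2 were lower, against 2.65%. At an unadjusted p under 0.05 there were 35 members (25.4%), 16 higher and 19 lower, against 25.5% of the genes of at least 20 CPM. The members' share at this looser limit was thus near that of genes of like level.

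Most differences were small, as they were in genes of like level. The median log2 fold change of the members was 0.009, against -0.007 over all genes tested and -0.048 over the genes of at least 20 CPM, and 72 were positive and 66 negative. It was 0.066 with scaling by library totals and 0.053 by upper quartile. The members ranged from -1.045 to 0.70, and of the 138, 84 lay within 0.25 of 0 and 9 beyond 0.5. Of the 7970 genes of at least 20 CPM, 5211 lay within 0.25 of 0 and 758 beyond 0.5. Both 24 h libraries stood above both 0 h libraries in 34 members (24.6%, against 29.3% of all genes), and below both in 38 (27.5%, against 29.5%). The plot of fold change against level shows the members spread on both sides of 0 at every level.

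**Figure D1:**
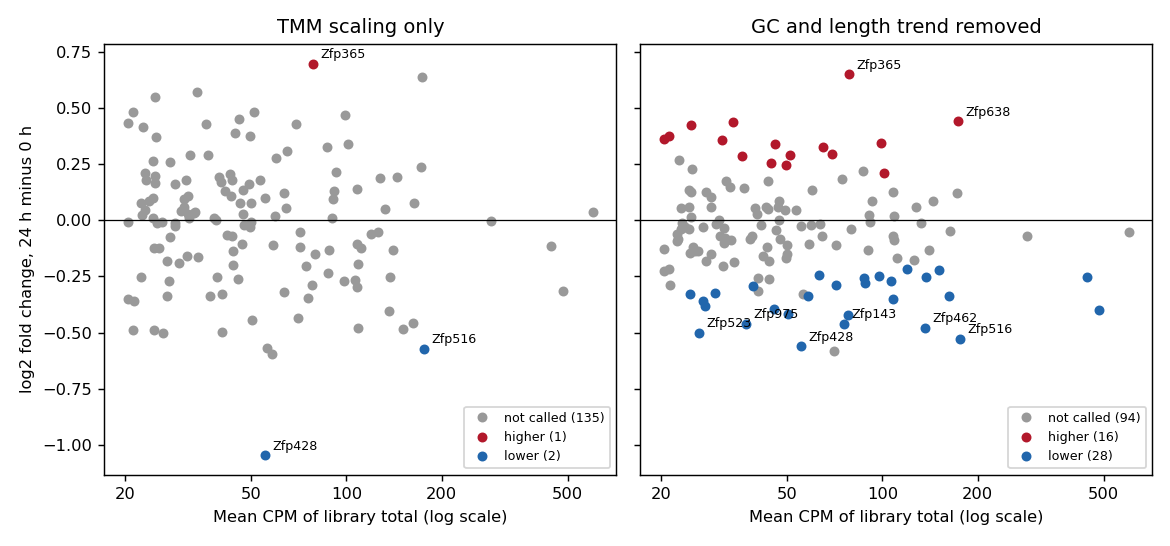
The log2 fold change (24 h minus 0 h, vertical axis) of the 138 members against their mean CPM of the library total (horizontal axis, log scale), with TMM scaling only on the left and after removal of a trend on GC content and length on the right. Points are genes, coloured by their call in edgeR at an adjusted p of 0.05, with 1 higher and 2 lower on the left and 16 higher and 28 lower on the right.

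The call that rose was Zfp365 (ENSMUSG00000037855, chr10:67886103-67912662, minus strand), which encodes a protein known from centrosomes and genome stability. It stood at 58.01 and 61.39 CPM at 0 h and at 95.48 and 98.07 at 24 h. The replicates lay close together and the groups were well apart. Its log2 fold change was 0.70 (SE 0.103), with an adjusted p of 0.0138. Without 24 h replicate A or B the fold change was 0.70 or 0.66, but the adjusted p was 0.154 or 0.215 (edgeR).

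Zfp428 (ENSMUSG00000064264, chr7:24507006-24515682, plus strand) fell. It stood at 92.33 and 58.33 CPM at 0 h and at 37.88 and 35.14 at 24 h. In CPM the 0 h libraries lay further apart than 0 h B and either 24 h library, and the groups did not overlap. The log2 fold change was -1.045 (SE 0.207), with an adjusted p of 0.0322. Without 0 h replicate A it was -0.68 and without 0 h replicate B -1.34. The transcript of this gene is rich in GC (64.4%), and 13.1% of its 50-base windows also lie in the transcript AC161166.1, which overlaps it on the other strand. The strand setting of the counting is not given in the sources used here, so reads of that pair cannot be told apart.

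Zfp516 (chr18:82910663-83005314, plus strand), whose product works with the corepressor CtBP and the demethylase LSD1 and is known from brown fat, also fell. It stood at 231.4 and 192.0 CPM at 0 h and at 146.5 and 138.6 at 24 h. Both 0 h libraries were above both 24 h libraries. The log2 fold change was -0.57 (SE 0.121), and the adjusted p was 0.0386. Without 24 h replicate A or B the adjusted p was 0.257 or 0.425, and in a test against a fold of 1.2 (glmTreat) it was 0.112.

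**Figure D2:**
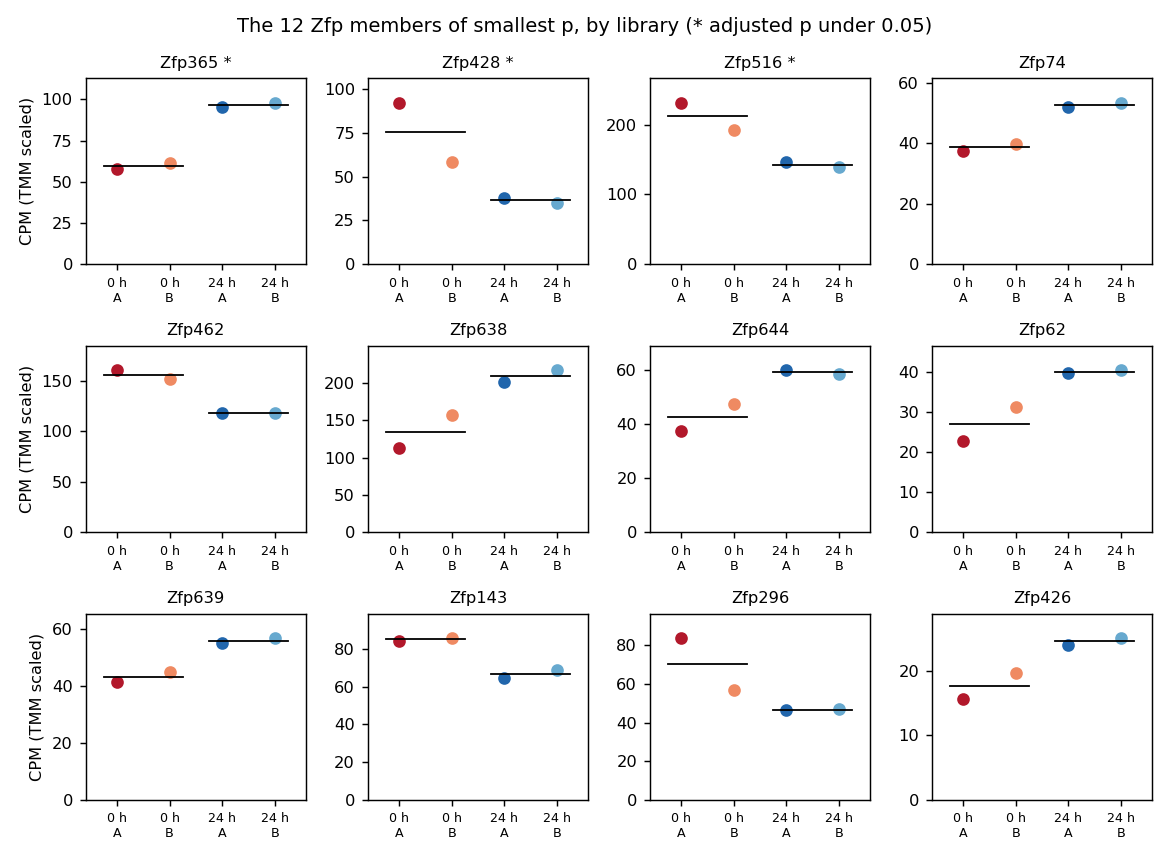
CPM (TMM scaled, vertical axes from 0) of the 12 members of smallest p in each of the 4 libraries (horizontal axis), with a black line at the mean of each group of 2. Stars mark the 3 members past the test. In each of the 12 panels both 24 h libraries lie on the same side of both 0 h libraries. The 0 h replicates lie furthest apart in Zfp428, Zfp296, Zfp638 and Zfp62 (log2 difference of A from B 0.662, 0.553, -0.486 and -0.46).

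The 0 h replicates differed in the members far more than the 24 h replicates did. The SD over members of the log2 difference between A and B was 0.373 at 0 h and 0.078 at 24 h. This difference followed the GC content of the transcript: 0 h A lay below 0 h B in 32 of 32 members under 40% GC, in 37 of 40 from 40 to 45%, in 16 of 27 from 45 to 50%, in 0 of 18 from 50 to 55% and in 0 of 21 above. The median log2 difference of A from B at 0 h was -0.448 in the lowest of these GC classes and 0.521 in the highest. Across the members, which share their libraries, the deviation of 0 h A from the gene's mean correlated with GC content at r = 0.868 (138 genes). For 0 h B, 24 h A and 24 h B it was -0.578, -0.521 and -0.669. A gene's deviations add up to 0, so a positive r in 0 h A pulls the others negative, and they are not separate comparisons. Over all genes tested the values were 0.477, -0.192, -0.162 and -0.223 in the same order. Why 0 h A follows GC content was not tested.

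All genes of at least 20 CPM, members included, showed the same order. Under 40% GC, 0 h A lay below 0 h B in 424 of 437 of them (median log2 difference -0.332), and above 55% in 37 of 1642 (median 0.416). The members called depended on which library was left out. Without 0 h replicate A, 57 members were called (21 higher, 36 lower), which is 41.3%, against 45.7% of the genes of at least 20 CPM. Without 0 h replicate B, 102 were called (60 higher, 42 lower), which is 73.9%, against 70.8%. The members' shares were near those of genes of like level in both fits. Without 24 h replicate A or B only 1 was called, Zfp428. Such fits leave 1 group with a single library and borrow its spread from the other group, so these counts rest on that assumption.

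**Figure D3:**
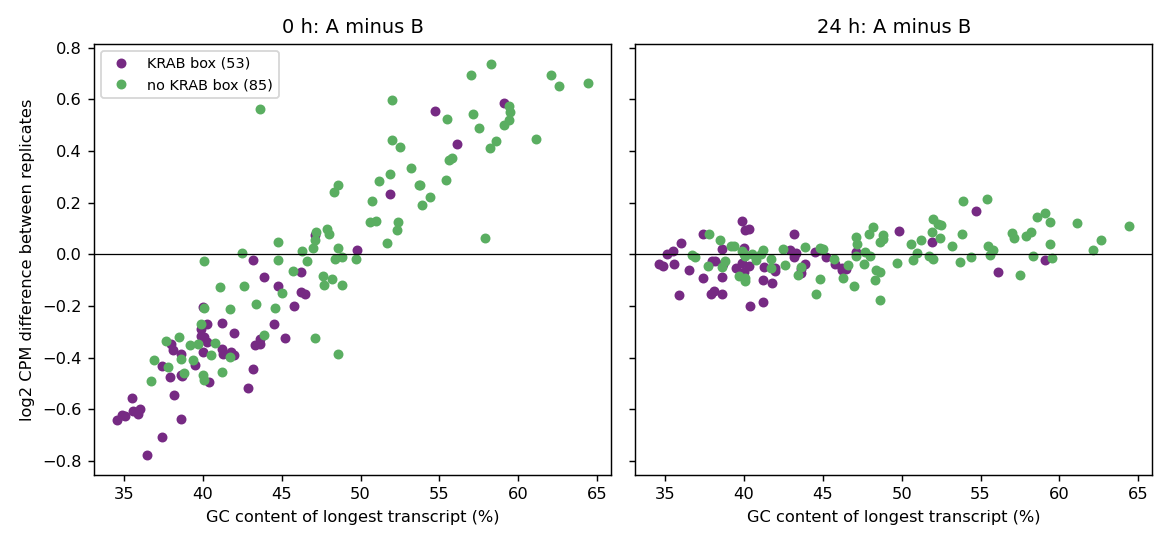
The log2 CPM difference of replicate A from replicate B (vertical axis) against the GC content of each member's longest transcript (horizontal axis), at 0 h on the left and at 24 h on the right. Points are the 53 members in which the KRAB pattern was found and the 85 in which it was not. At 0 h they run from below 0 at low GC to above 0 at high GC, and at 24 h they stay near 0.

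Because of that trend the comparison was also made with a smooth trend on GC content and exon length removed from each library. More members were then called: 44 (31.9%), 16 higher and 28 lower. Over all genes 24.2% were called, 11.3% higher and 12.9% lower, and of the genes of at least 20 CPM 31.0%. The members' total was therefore near that of genes of like level. The log2 fold changes of Zfp365, Zfp428 and Zfp516 were then 0.65, -0.56 and -0.53, all past the threshold. The median log2 fold change of the members was -0.068, against -0.028 over all genes tested and -0.075 over the genes of at least 20 CPM. The removal was incomplete for the members, since r between GC content and the deviation of 0 h A remained 0.391. Of the 44, 30 were also called in the same direction by edgeR without 0 h A and without 0 h B, 14 higher and 16 lower. That is 21.7% of the members, against 24.4% of the genes of at least 20 CPM, and the 3 fits share the 24 h libraries. Higher were Zfp62, Zfp74, Zfp105, Zfp346, Zfp365, Zfp426, Zfp638, Zfp639, Zfp644, Zfp655, Zfp760, Zfp850, Zfp936 and Zfp951. Lower were Zfp7, Zfp57, Zfp141, Zfp143, Zfp217, Zfp296, Zfp383, Zfp384, Zfp395, Zfp428, Zfp462, Zfp516, Zfp518b, Zfp598, Zfp710 and Zfp740. These 30 were picked by their values and are given as a description.

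Of the members known as guardians of imprints and silencers of retroelements, 7 of the 14 listed reached the level, and 0 of the 7 passed edgeR's test. An unadjusted p under 0.05 was reached by 2, and DESeq2 and limma voom called 0. Of the genes of at least 20 CPM, 25.5% reached that unadjusted p and 11.4% were called by DESeq2, and the counts of the other groups of members below stand beside these same shares. Zfp57, which binds methylated imprinting control regions and keeps their methylation, was the most abundant of all members per length, at 127.6 CPM per kb of exon. It stood at 498.5 and 572.6 CPM at 0 h and at 425.2 and 436.7 at 24 h. Both 24 h libraries were below both 0 h libraries. The log2 fold change was -0.31 (adjusted p = 0.124), and -0.40 after removal of the trend on GC and length (adjusted p = 0.00108 in edgeR).

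Zfp445, its partner in imprint protection, stood at 40.66 and 51.85 CPM at 0 h and at 51.88 and 51.72 at 24 h. The groups overlapped, and 0 h A stood apart as the low library. Zfp568, which represses a placental transcript of Igf2, was level at 295.1, 280.3, 287.6 and 286.1 CPM (0 h A, 0 h B, 24 h A, 24 h B), a log2 fold change of -0.004. Zfp809, which silences proviruses of murine leukaemia virus, stood at 23.99 and 30.01 CPM and then at 30.08 and 30.29, again with 0 h A alone low. Of the remaining 3, Zfp951 had a log2 fold change of 0.39 (0.25 and past the test with the trend removed), Zfp871 -0.18 (-0.36, past the test) and Zfp961 -0.05.

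Of 9 members that act on RNA, the ribosome or the spindle (11 listed), 0 passed edgeR's test and 4 had an unadjusted p under 0.05. DESeq2 called 1 and voom 0. The call of DESeq2 was Zfp638, an RNA-binding protein that also silences retroviral DNA before integration. It stood at 112.3 and 157.3 CPM at 0 h and at 202.1 and 217.2 at 24 h. The 24 h libraries were both higher, by 0.64 on the log2 scale (SE 0.162), which missed edgeR's threshold (adjusted p = 0.0648). With the trend removed it was 0.44 (adjusted p = 0.00373), and it was 0.41 and 0.90 without 0 h A and 0 h B.

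Zfp346, which binds double-stranded RNA, stood at 60.58 and 55.51 CPM at 0 h and at 73.49 and 70.34 at 24 h, a log2 fold change of 0.31 that was past edgeR's threshold with the trend removed (0.32) but not with TMM scaling alone. Zfp598, the ubiquitin ligase that senses collided ribosomes, stood at 208.9 and 145.6 CPM and then at 128.5 and 124.8. Its 0 h libraries lay further apart than 0 h B and the 24 h libraries, and the log2 fold change moved from -0.49 to -0.22 with the trend removed. Zfp622, which takes part in the maturation of the large ribosomal subunit, stood at 96.56 and 65.38 CPM and then at 58.92 and 60.92. Here 0 h A alone was high, although the transcript is not rich in GC (43.6%), and neither fit called the gene. Zfp207, a kinetochore and spindle protein, was the member next to Zfp57 in level per length (66.55 CPM per kb). It stood at 427.5, 494.4, 417.4 and 433.1 CPM, with overlapping groups. Its log2 fold change was -0.12, and -0.25 with the trend removed (adjusted p = 0.0107, edgeR). Zfp106, an RNA-binding protein and next in that order (57.72 CPM per kb), stood at 605.9, 582.8, 623.8 and 595.2, with overlapping groups.

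Of the 14 partners of chromatin enzymes (16 listed), 1 passed edgeR's test, Zfp516, described above. A negative fold change was found in 10 of the 14, with a median of -0.168, and 57.6% of all genes of at least 20 CPM were negative. With the trend removed 5 were lower and 2 higher (median -0.118). Of the genes of at least 20 CPM 31.0% were then called, 20.9% lower. Zfp462, which works with HP1 and the histone methyltransferases G9a and GLP, stood at 160.1 and 151.5 CPM at 0 h and at 117.7 and 118.1 at 24 h. Replicates agreed closely in both groups, and the log2 fold change was -0.40 (SE 0.098), with an adjusted p of 0.058 by edgeR and 0.0352 by DESeq2, and -0.48 with the trend removed.

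Zfp644, found with WIZ in the G9a and GLP complex, differed in the other direction. It stood at 37.24 and 47.49 CPM at 0 h and at 59.77 and 58.51 at 24 h, so that its log2 fold change was 0.48 (adjusted p of 0.0891 by edgeR, 0.0403 by DESeq2) and 0.29 with the trend removed. Zfp518b, another partner of G9a, had 114.7 and 124.4 CPM and then 97.77 and 97.11, and Zfp217, a partner of CoREST and CtBP, had 152.2 and 147.5 and then 125.5 and 125.9. Both had 24 h libraries below both 0 h libraries, and both passed edgeR's threshold with the trend removed but not with TMM scaling alone. Zfp687, Zfp592 and Zfp532, which associate with ZMYND8, had log2 fold changes of -0.15, -0.11 and 0.03 and were not called in either fit.

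Of the 8 transcription factors (13 listed), 0 passed edgeR's test and 4 had an unadjusted p under 0.05. DESeq2 called 1 (Zfp296, lower) and voom 0. A negative fold change was found in 7 of the 8 (6 with scaling by library totals or by upper quartile, where Zfp131 was positive), and 6 were lower with the trend removed (median -0.278). Of all genes of at least 20 CPM 57.6% were negative and 20.9% were lower with the trend removed. The list was chosen with earlier results known, and nothing particular to it is read from these counts. Zfp143, a factor of housekeeping promoters, stood at 84.31 and 85.62 CPM at 0 h and at 64.68 and 69.04 at 24 h. It had close replicates in both groups, a log2 fold change of -0.35 with an adjusted p of 0.0953, and -0.46 with the trend removed (adjusted p = 0.00523, edgeR).

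Zfp296, known from pluripotent cells and reprogramming, stood at 83.66 and 56.99 CPM at 0 h and at 46.41 and 46.84 at 24 h. The high value was that of 0 h A, and the log2 fold change went from -0.59 to -0.34 with the trend removed, to -0.29 without 0 h A and to -0.85 without 0 h B. Zfp384 stood at 66.39 and 49.83 CPM and then at 44.4 and 41.06, a log2 fold change of -0.44, and -0.42 with the trend removed. It was -0.22 without 0 h A and -0.64 without 0 h B. Zfp148, which binds GC-rich promoters, Zfp292 and Zfp131 had overlapping groups and log2 fold changes of -0.12, -0.06 and -0.03. With the trend removed these were -0.29, -0.22 and -0.17, and edgeR then called Zfp148 and Zfp292 lower but not Zfp131.

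**Figure D4:**
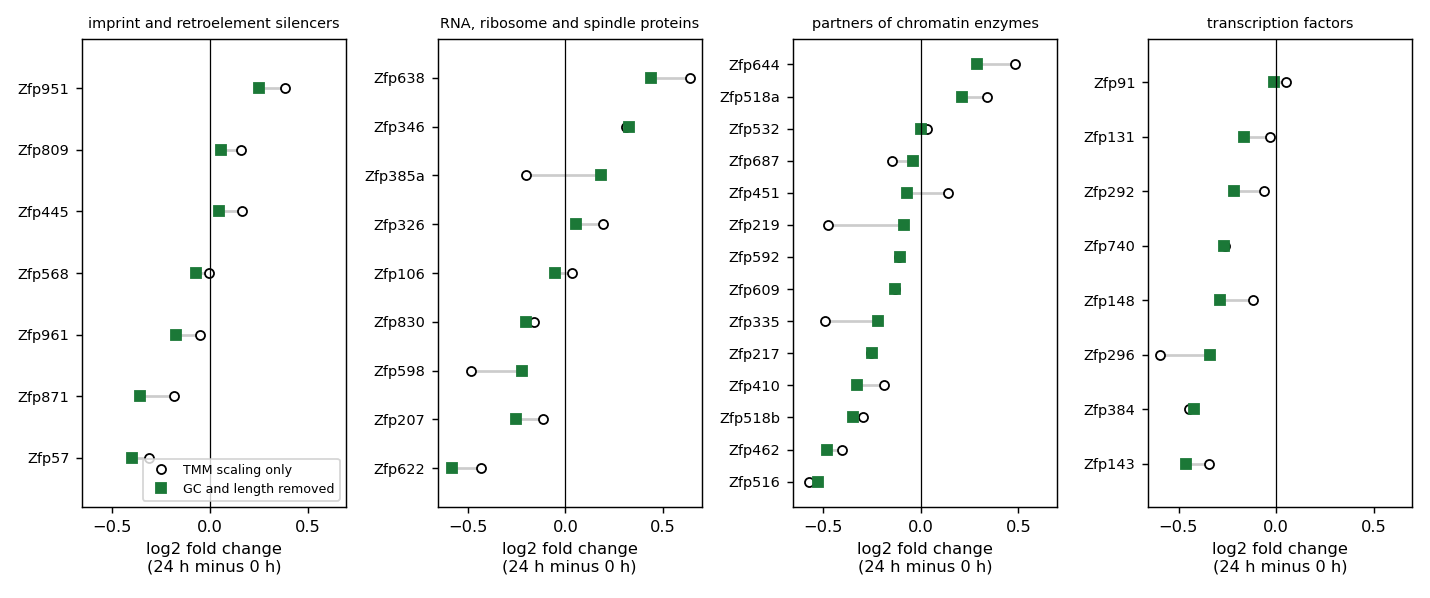
The log2 fold change (24 h minus 0 h, horizontal axes) of the 38 members in the 4 role lists, with TMM scaling only (open circles) and after removal of the trend on GC and length (filled squares). In the list of transcription factors 7 of the 8 open circles lie below 0 (6 with scaling by library totals or by upper quartile), and the largest moves between the fits are those of Zfp219 and Zfp385a.

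Beyond these lists and the genes past the test, some members are named after their values were seen. Zfp74, with a KRAB box and 18 matches of the C2H2 pattern, had rank 4 by p. It stood at 37.44 and 39.82 CPM at 0 h and at 52.14 and 53.45 at 24 h. Its log2 fold change was 0.45 (adjusted p of 0.0562 by edgeR) and 0.34 with the trend removed. Zfp62 stood at 22.74 and 31.3 CPM and then at 39.75 and 40.41, a log2 fold change of 0.57 and 0.44 with the trend removed. Zfp706, a short protein known to restrain Klf4 in embryonic stem cells, stood at 147.0 and 168.2 CPM and then at 180.2 and 190.7. Its 24 h libraries were both higher, but neither fit called it (log2 fold changes 0.24 and 0.12).

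Of the 53 members with a KRAB box, edgeR called 0 and voom 0, with 9 at an unadjusted p under 0.05 (7 higher, 2 lower), and DESeq2 called 2. Of the genes of at least 20 CPM, edgeR called 5.81% and DESeq2 11.4%, and 25.5% had such an unadjusted p. Of the 85 without a match of the KRAB pattern edgeR called 3. A box that differs further from the pattern would be counted here as absent. The median log2 fold change was 0.098 with a KRAB box and -0.061 without, and the difference between these groups was not tested. Their GC content differed too, with a median of 40.4% against 48.3%, and 0 h A lay below 0 h B in 47 of the 53 and in 38 of the 85. With the trend removed the medians were -0.027 and -0.085, without 0 h A they were -0.038 and -0.060, and without 0 h B 0.345 and -0.067. Among members under 45% GC alone, the medians were 0.146 with (42) and 0.092 without (30) a KRAB box.

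Genes of this family lie in clusters. Neighbouring members at most 1000000 bases apart formed 12 runs of at least 3, with 51 members in all, and chromosome 7 held 30 members, more than any other. The longest run held 8 members at chr4:145510759-147809788: Zfp990, Zfp981, Zfp988, Zfp982, Zfp985, Zfp979, Zfp534 and Zfp984, all with a KRAB box. Their transcripts are low in GC (median 35.5%) and resemble each other. Between 11.9% and 68.4% of their 50-base windows also lie in a transcript of another gene. The window below, at chr4:145537465-145537514 of GRCm38 (plus strand), is shown because it occurs unchanged in 6 neighbours of Zfp990 (Zfp534, Zfp979, Zfp981, Zfp982, Zfp985 and Zfp988), and a 50-base read from it could belong to any of them.
Zfp990 shared window: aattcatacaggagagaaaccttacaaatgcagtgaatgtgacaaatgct

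How the counting treated such reads is not given in the sources used here, so the levels in this run are uncertain. Zfp990, the highest of them, stood at 125.7 and 191.3 CPM at 0 h and at 165.1 and 169.4 at 24 h. The 24 h libraries lay between the 0 h libraries, and 0 h A was below 0 h B in 8 of 8 members (median log2 difference -0.613). The median log2 fold change of the run was 0.09, and 0 of the 8 were called in either fit. It was -0.186 without 0 h A and 0.424 without 0 h B, so that leaving out 1 library turned its direction.

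**Figure D5:**
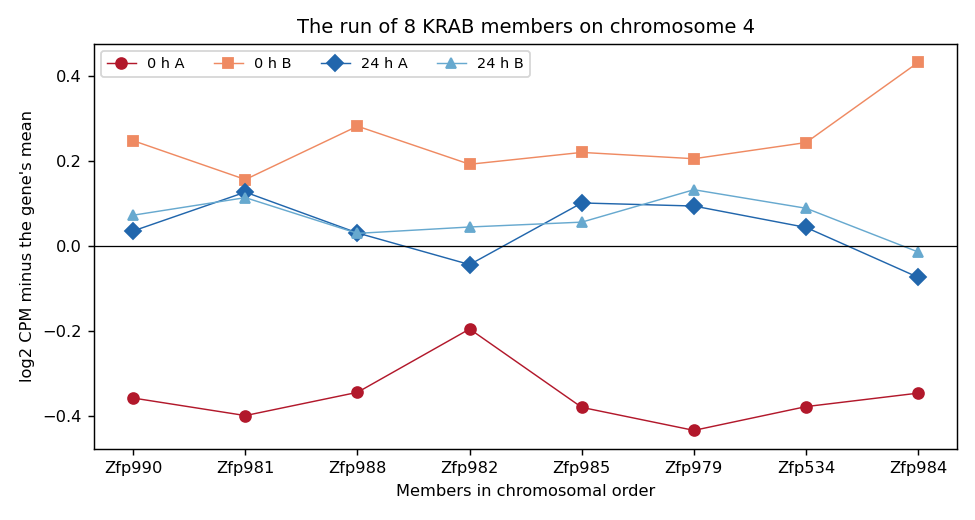
The log2 CPM of the 8 members of the chromosome 4 run in each library, minus the gene's own mean over the 4 libraries (vertical axis), in chromosomal order (horizontal axis). In all 8 members 0 h A is the lowest library and 0 h B the highest, with both 24 h libraries between them.

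A run of 5 KRAB members at chr7:42473386-43313294 did not move as one. This run and 3 of its genes are described after their values were seen. The other 2 runs of 5, at chr17:21707741-23599487 and chr17:32765496-33631779, had 1 higher and 0 lower and then 0 higher and 2 lower with the trend removed. Zfp141 stood at 77.71 and 93.62 CPM at 0 h and at 69.12 and 71.41 at 24 h, and Zfp976 at 43.55 and 55.47 and then at 40.96 and 41.72. Zfp936, between Zfp975 and Zfp715 in this run, stood at 25.59 and 35.42 CPM and then at 41.34 and 40.78. In Zfp141 and Zfp976 both 24 h libraries were lower, and in Zfp936 both were higher. With the trend removed 3 of the 5 were lower and 1 was higher in edgeR, whereas with TMM scaling only 0 were called. Of the genes of at least 20 CPM 31.0% were called with the trend removed. Shared windows made up 14.5%, 20.4% and 15.6% of these 3 transcripts.

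The corepressor pathway that the KRAB box recruits was described by 31 genes, all tested. Cbx3, Senp7 and Sumo2 among them lay under 20 CPM, at means of 13.02, 7.711 and 0.8798 CPM of the library total. EdgeR called 0 of the 31, against 5.81% of the genes of at least 20 CPM. An unadjusted p under 0.05 was reached by 7 (3 higher, 4 lower), against 25.5% of such genes. DESeq2 called 1 (Ehmt2, lower), against 11.4% of such genes, and voom 0. Trim28, which encodes KAP1, stood at 2383 and 1755 CPM at 0 h and at 1547 and 1484 at 24 h. The high value was again that of 0 h A, in a transcript of 59.6% GC, and the log2 fold change was -0.45 (adjusted p = 0.115 in edgeR). It was -0.18 with the trend removed (adjusted p = 0.0188).

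Setdb1, the histone methyltransferase that KAP1 recruits, stood at 175.6 and 174.7 CPM at 0 h and at 156.3 and 156.2 at 24 h. Replicates nearly coincided and the groups were apart, and the log2 fold change was -0.17 (adjusted p of 0.315 by edgeR) and -0.21 with the trend removed (adjusted p = 0.0286). With the trend removed 9 of the 31 were called, all lower (against 12.9% of all genes and 20.9% of those of at least 20 CPM): Atrx, Cbx1, Chd3, Chd4, Ehmt2, Hdac1, Hdac2, Setdb1 and Trim28. The median log2 fold change of the 31 was -0.025 with all libraries, -0.094 without 0 h A and 0.006 without 0 h B.

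Promoters were read because KLF proteins bind CACCC and GC-box sequences. RefSeq (GRCm38.p6) gave 142 windows of 250 bases before the start for 112 of the 138 members. CACCC, on either strand, was in 52.1% of the members' windows and in 52.0% of all 32851 windows. GGGCGG, on either strand, was in 54.2% and 32.7%. All windows include those of genes under the level, and no share for genes of like level was taken. Nothing particular to the members is therefore read from this difference. Both searches count overlapping matches of either motif. A match is only a run of letters, and binding was not measured in these files.

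The promoters of 2 members are shown, with capitals at each CACCC or GGGCGG on either strand: that of Zfp365, the member that rose, at chr10:67912663-67912912 (minus strand), and that of Zfp296, chosen after its letters were seen because it held 4 CACCC and 3 GGGCGG matches, at chr7:19577037-19577286 (plus strand). Zfp365 held 0 CACCC and 1 GGGCGG match, and the window of Zfp428 held none of either.
Zfp365 promoter: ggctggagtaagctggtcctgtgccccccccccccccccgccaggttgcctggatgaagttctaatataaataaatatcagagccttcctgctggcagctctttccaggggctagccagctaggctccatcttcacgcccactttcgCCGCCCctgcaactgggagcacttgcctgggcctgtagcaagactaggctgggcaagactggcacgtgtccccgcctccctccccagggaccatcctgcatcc
Zfp296 promoter: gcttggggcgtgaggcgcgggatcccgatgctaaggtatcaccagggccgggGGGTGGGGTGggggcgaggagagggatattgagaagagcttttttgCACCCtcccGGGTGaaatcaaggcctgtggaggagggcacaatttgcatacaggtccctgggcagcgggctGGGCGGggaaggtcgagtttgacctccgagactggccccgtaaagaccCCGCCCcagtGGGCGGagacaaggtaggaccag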

How the data were processed

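Per the labels' protocols, 4 stranded mRNA libraries were sequenced as 50 nt single reads. The authors deposited unnormalized counts of reads for each Ensembl gene. The submitters' processing notes name TopHat2, HTSeq, DESeq and mm10. The sources used here do not give the annotation release, the strand setting or the treatment of reads with several matches. Symbols, exon lengths, GC content, overlaps and coding sequences came from GENCODE M21 on GRCm38, with 563 identifiers unmatched.

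Genes were kept with filterByExpr (minimum count 10, minimum total 15), scaled by TMM and tested in edgeR 4.0.16 by quasi-likelihood (2-sided, Benjamini-Hochberg adjustment over all genes, threshold 0.05) in R 4.3.3. With 2 libraries per group, the error of a gene is estimated with help from all other genes. DESeq2 1.42.0, limma 3.58.1 (voom), other scalings and filters, the replicate letter as a block, each library left out, and a spline on GC content and exon length (5 degrees of freedom each) removed per library as offsets were alternatives. The letters A and B are not said to mark a shared clone and were not used as a block in the test itself.

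The members and lists were chosen with earlier results of these data known. Genes named are the members past the test, the 6 highest in CPM per kb of exon, the 3 nearest the level on each side, the role lists, and the genes past the test in the KAP1 pathway with Trim28 and Setdb1. Others are said to be named after their values were seen. A KRAB box was a pattern of 8 fixed residues with at most 2 differing, in the first 250 residues. A C2H2 finger had 12 residues between its cysteines and its histidines. Figures were drawn with matplotlib 3.10.9.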

Additional observations from a re-analysis of the deposited data

How the results depend on the processing

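With 2 libraries per group, 1 of them set apart by GC content, single calls are uncertain. The number of members called (3) was 17 with no filter on low counts, 10 with DESeq2, 1 with glmTreat, 44 with the GC and length correction, 5 of 213 at a member level of 10 CPM, and 1 to 102 as each library was left out. The number over all genes (1225, 61.1% higher) was 2589 (47.5% higher), 1994, 607, 4361 (46.8% higher) and, with libraries left out, 505 to 9416. That of the KAP1 list (0) was 2, 1, 0, 9 and, with libraries left out, 0 to 20. The members' median log2 fold change (0.009) was -0.068 with the correction, -0.057 at a level of 50 CPM, and -0.054 to 0.095 with libraries left out. Other scalings gave 3 or 4 members.

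With the replicate block, 27 members (13 higher, 14 lower), 3253 genes and 3 KAP1 genes were called, and with the block and the correction 51, 5376 and 10, with a members' median of -0.067. The r between same-letter deviations was 0.062 over all genes tested and 0.436 over the members. All genes tested had a lower median level (14.25 CPM, against 45.57). Their 24 h replicates also differed more (SD of the log2 difference 0.336, against 0.078). No r was taken for genes of like level, so the lower r does not show that pairing was absent. In the members the difference of A from B ran with GC content at both times. Its median from the lowest to the highest GC class went from -0.448 to 0.521 at 0 h and from -0.029 to 0.057 at 24 h. A pairing of the letters and this trend cannot be told apart here, and the cause of the r over the members was not tested.

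Over 43 named genes and 15 alternatives, 491 values kept direction and side of the threshold, 117 newly passed it, 6 no longer did and 31 changed sign. None of those that changed sign was past the threshold with all 4 libraries, but 5 of the changed values were past it in edgeR. These were Zfp990 (-0.195, adjusted p = 0.000312), Zfp385a (0.158, 0.0313) and Zfp91 (-0.131, 0.0307) without 0 h A, and Zfp292 (0.144, 0.0154) and Zfp961 (0.151, 0.0101) without 0 h B. With the correction alone and with the block added, Zfp106 was -0.053 and -0.052, Zfp990 -0.046 and -0.043, Zfp385a 0.184 and 0.186, Zfp451 -0.069 and -0.067, Zfp532 -0.001 in both, and Zfp91 -0.010 with the correction alone. As each library was left out, Zfp106 ran from -0.017 to 0.063, Zfp990 from -0.195 to 0.408, Zfp568 from -0.045 to 0.032, Zfp385a from -0.497 to 0.158, Zfp592 from -0.26 to 0.054, Zfp687 from -0.288 to 0.003, Zfp148 from -0.249 to 0.018, Zfp91 from -0.131 to 0.253, Zfp292 from -0.245 to 0.144, Zfp532 from -0.036 to 0.094, Zfp445 from -0.003 to 0.345, Zfp961 from -0.237 to 0.151 and Zfp131 from -0.197 to 0.148. Scaling by library totals gave Zfp568 0.053, Zfp961 0.001 and Zfp131 0.022, upper quartile scaling Zfp568 0.040 and Zfp131 0.008, and a filter of 1 CPM in 2 libraries Zfp568 0.009. The causes were not tested.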
